A study of Rattus norvegicus with 47 samples.

Results

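Kidneys of rats that had carried depleted uranium (DU) pellets for 12 months were compared with kidneys of rats that had carried tantalum (Ta) pellets for the same time, over every gene of the deposited count table. The DU group held 8 kidneys and the Ta group 8, so this contrast compares 16 of the 47 libraries of the series. The gene filter, the scaling and the spread between animals came from 1 fit of all 47 libraries. A second contrast sets the DU kidneys beside 31 kidneys from rats with W (tungsten), Co (cobalt), Al (aluminum) or Pb (lead) pellets for the same 12 months, 8 for each metal except 7 for Pb. According to the series description, each rat received its metal by random assignment, and Ta stood as the inert one. Every pellet was a cylinder 1 mm wide and 2 mm long. Every library carries a separate animal number in the labels, which give no strain, sex, age or implant site. Animal numbers run in blocks by metal, so an effect of handling order and an effect of the metal cannot be told apart. One DU kidney, replicate 6, stood far from all others and had been described from these data as acutely injured; the labels say nothing of it. Each comparison was therefore made with all 16 kidneys and again without that kidney, and the text leads with genes called in the same direction both times, here said to have held.

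Uranium leaves the body mainly through the kidney, where the proximal tubule is its best known site of damage. Cells of the last, straight part of that tubule (S3) carry brush border enzymes and transporters for organic anions, peptides and amino acids, and they are known to be the most sensitive to uranyl salts. Metallothioneins are small proteins rich in cysteine that bind zinc, copper and cadmium and are induced by many metals, while glutathione, made by glutamate-cysteine ligase, buffers oxidants.

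Total counts per library were 23069582 to 32936105 in DU kidneys and 23259750 to 35775818 in Ta kidneys. Markers of kidney were present in all 16 libraries: the lowest value was 484 CPM (read counts scaled by library size) for Umod, 24.8 CPM for Slc34a1 and 56.4 CPM for Aqp2, each in DU replicate 6. Library properties other than depth did separate the groups. Genes with at least 1 count numbered 17087 to 18015 in DU libraries and 14981 to 16604 in Ta libraries, with no overlap. Among genes with 1 to 20 counts, odd counts made up 28.2% to 33.6% in DU libraries and 18.02% to 26.8% in Ta libraries, again with no overlap, so that low counts were mostly even in both groups. This share was 26.8% to 32.7% in Al, 25.3% to 32.1% in Pb, 19.5% to 25.9% in W and 17.9% to 26.4% in Co libraries. A size balance, the average log2 CPM over genes for cytosolic ribosomal proteins less the average over 36 genes that encode very large proteins, came to 2.34 ± 0.34 in DU kidneys and 1.59 ± 0.28 in Ta kidneys (SD, n = 8 each). All 8 DU libraries lay above all Ta libraries in it. The mean balance of the other metals was 2.017 in W, 2.448 in Co, 2.558 in Al and 3.355 in Pb kidneys, so Ta had the lowest mean of the 6 metals. The part of these library properties in the results was not tested, other than by a fit that takes the balance as a covariate. Of 86 named genes called with all 16 kidneys, 52 lost the call in it.

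With all 16 kidneys, edgeR's quasi-likelihood F test with Benjamini-Hochberg adjustment called 1252 genes higher in DU kidneys (7.89% of 15868 tested) and 1172 lower (7.39%). Without DU replicate 6 the counts were 1187 higher (7.5% of 15833 tested) and 760 lower (4.8%). In both fits and in the same direction, 1003 genes were higher (6.33%) and 689 were lower (4.35%), together 10.7% of the genes tested in both. Leaving out replicate 6 ended 249 calls of a higher and 483 of a lower level, and it added 184 and 71. The median held gene was higher by 0.54 or lower by 0.48 on the log2 scale, and the median over all genes was -0.0065. A change of more than 2 times in both fits was found for 190 held higher and 58 held lower genes. Groups did not overlap at all for 310 of the held higher and 89 of the held lower genes. Over all 15868 genes tested, 320 lay higher and 111 lower in DU kidneys without overlap. Held genes were picked by a test on the same values, so their lack of overlap is partly set by that choice. Genes with a mean under 1 CPM made up 82 of those 190 and 4 of those 58. The genes named for their own change were taken by fixed rules that ask for at least 5 CPM in the higher group, and members of gene lists were named whatever their level.

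**Figure D1:**
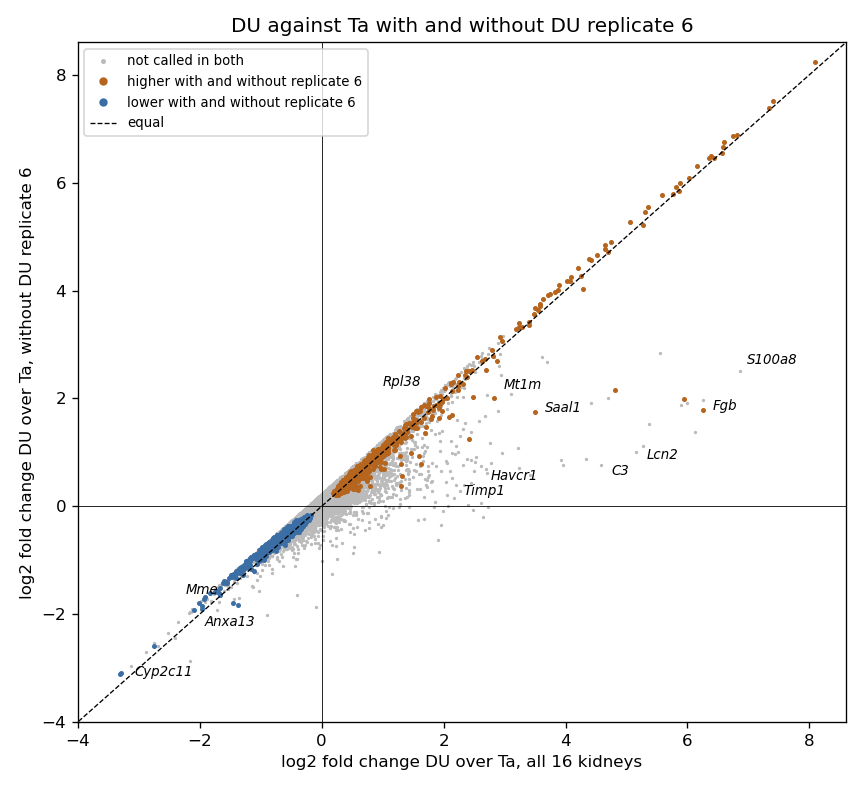
Log2 fold change of DU over Ta for 15833 genes, with all 16 kidneys (horizontal axis) and without DU replicate 6 (vertical axis). Many genes that held lie near the dashed line of equal values, but Fgb, Fgg and Saal1, which also held, fall far below it. Lcn2, C3, Havcr1, Timp1 and S100a8, which did not hold, fall far below it too, with a much smaller change once replicate 6 is left out.

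Among the named genes the steepest fall was that of Cyp2c11, which encodes a steroid hydroxylase known as a major male-specific cytochrome P450 of rat liver. Its level ran from 0.443 through a median of 3.93 to 9.996 CPM in DU kidneys, and from 6.74 through 24.2 to 100.01 CPM in Ta kidneys. Every DU kidney except 1 (replicate 7) lay below every Ta kidney. The log2 fold change was -3.29 ± 0.61 (SE, adjusted p = 0.000162) and -3.09 ± 0.62 without replicate 6 (adjusted p = 0.000399). Its neighbour in the family, Cyp2c24, had 7.21, 14.9 and 29.3 CPM as lowest, median and highest DU value, against 14.9, 50.7 and 75.3 CPM in Ta kidneys. Cyp2c24 fell, with log2 fold changes of -1.68 ± 0.35 and -1.60 ± 0.37 in the 2 fits (adjusted p = 0.000674 and 0.00193). The Cyp2c genes are close copies of each other, and how reads that match several places were counted is not given in the sources used here, so the split between them is uncertain. Of 20 P450 genes tested, 3 held lower and 1 higher, beside 4.35% lower and 6.33% higher over all genes. The third lower gene was Cyp4a3, a fatty acid hydroxylase (-0.66 and -0.47), and the call on Cyp4a3 was lost without Ta replicate 1 or 2. Cyp1a2 was the one P450 gene that held higher, at a mean of only 0.467 CPM in DU kidneys and 0.0443 CPM in Ta kidneys, and it lost its call without DU replicate 8, Ta replicate 2 or Ta replicate 8.

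Several peptidases of the brush border fell. Of 14 tested genes of brush border peptidases and angiotensin signaling, 5 held lower and none held higher, beside 4.35% lower and 6.33% higher over all genes. Their median log2 fold change was -0.54 in all kidneys and -0.39 without replicate 6, beside -0.0065 and 0.0095 over all genes. Mme encodes neprilysin, which cuts small peptides at the cell surface. Mme had 34.5, 101.8 and 229.8 CPM as lowest, median and highest value in DU kidneys, against 86.2, 292 and 450.1 CPM in Ta kidneys. All 8 DU kidneys lay below the Ta median, and 3 lay below every Ta kidney (log2 fold change -1.41 ± 0.29, adjusted p = 0.000613; -1.26 ± 0.29 and 0.00194 without replicate 6). Enpep, aminopeptidase A, which trims angiotensin II, stood at 94.0 to 230.2 CPM in DU and 199 to 377 CPM in Ta kidneys (-0.68 ± 0.15 and -0.55 ± 0.14). Anpep, aminopeptidase N (-0.92 and -0.71), and Dpp4, dipeptidyl peptidase 4 (-0.79 and -0.59), fell as well. The call on Anpep was lost without DU replicate 5, Ta replicate 1 or Ta replicate 2, and that on Dpp4 without Ta replicate 2. Ace, Agt, Agtr1a and Agtr1b were called in neither fit; the log2 fold change of Ace was -0.32 ± 0.23.

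**Figure D2:**
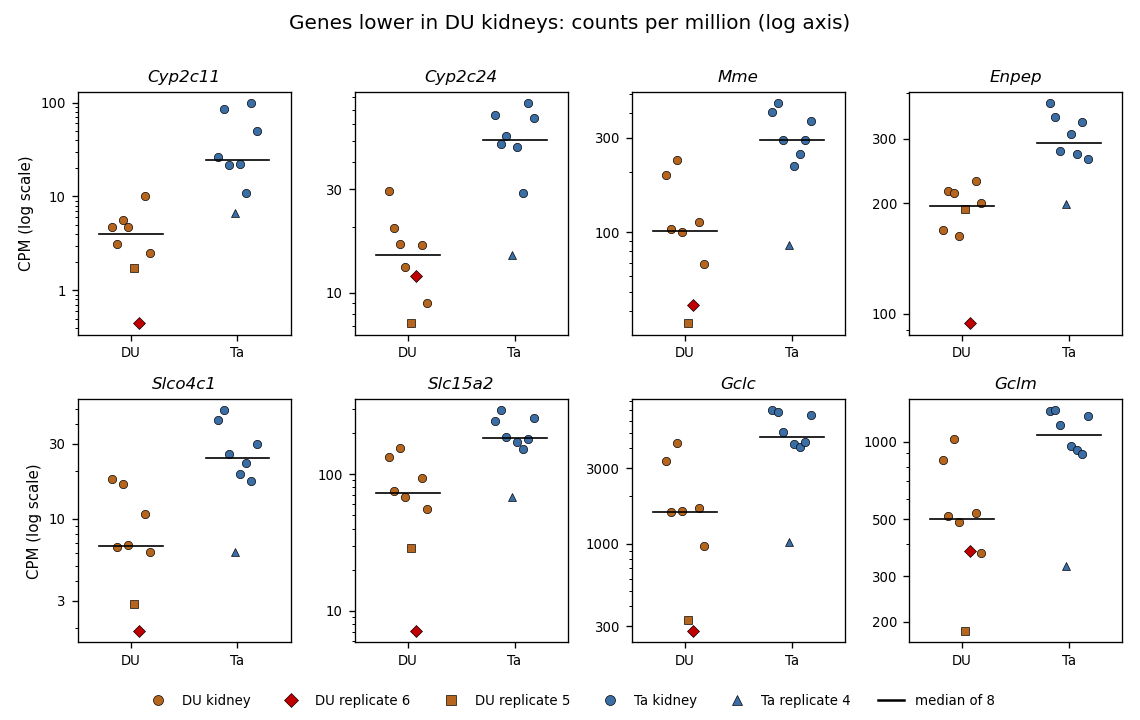
CPM (log axis) of 8 genes that held lower, 1 point per kidney, DU left and Ta right, with a bar at the median of 8. Ta replicate 4 (triangle) is the lowest Ta kidney in all 8 panels, and DU replicates 5 and 6 (square and diamond) are the lowest DU kidneys in 5 of them.

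Transporters of the same tubule segment were among the genes that fell. Slco4c1, an organic anion transporter of the proximal tubule that carries uremic toxins and digoxin, had 1.92, 6.68 and 17.9 CPM in DU kidneys (lowest, median, highest), against 6.10, 24.2 and 48.7 CPM in Ta kidneys. Its log2 fold change was -1.61 ± 0.33 (adjusted p = 0.000634) and -1.43 ± 0.32 without replicate 6 (adjusted p = 0.00156). Slco4c1 was 1 of 3 held lower genes among 19 of organic ion and urate transport, beside 4.35% of all genes. The others were Slco1a6 (-1.23 and -1.01) and Abcb1a, P-glycoprotein (-0.70 and -0.61). The call on Slco1a6 was lost when any of 7 libraries was left out (DU replicates 4, 5 and 8 and Ta replicates 1, 2, 3 and 8). The main basolateral organic anion carriers of the early tubule gave log2 fold changes of -0.15 ± 0.31 for Slc22a6 (OAT1) and -0.11 ± 0.47 for Slc22a8 (OAT3), and neither passed the test in either fit. Slc15a2, the high-affinity peptide transporter PEPT2 of the late proximal tubule, ran from 7.08 to 156 CPM in DU kidneys (median 72.2) and from 68.5 to 292 CPM in Ta kidneys (median 182). The value of Ta replicate 4 lay within the DU range, and the next lowest Ta kidney had 154 CPM, which only DU replicate 3 exceeded. Slc15a2 fell by 1.33 in all kidneys and by 1.12 without replicate 6 (adjusted p = 0.00304 and 0.00302). It was not called in a fit of the 16 DU and Ta libraries alone. Slc6a20, a proline and imino acid carrier, fell by 0.80 and 0.76.

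Of 9 tested markers of S3, 2 held lower, Acy3 and Atp11a, and none held higher, beside 4.35% lower and 6.33% higher over all genes. In all kidneys 8 of the 9 had a negative log2 fold change, with a median of -0.69 in all kidneys and -0.60 without replicate 6. Acy3, aminoacylase 3, had 106, 617 and 841 CPM in DU kidneys and 457, 1002 and 1229.6 CPM in Ta kidneys. Atp11a, a phospholipid flippase, had 150.1, 199 and 284 CPM in DU kidneys and 187, 342 and 451 CPM in Ta kidneys (-0.69 ± 0.17 and -0.63 ± 0.18). The call on Acy3 was lost without DU replicate 5, Ta replicate 1 or Ta replicate 8, and in a fit of the 16 DU and Ta libraries alone. Cyp7b1, an oxysterol hydroxylase and the 1 S3 marker with a positive value, was called higher with all kidneys (0.97 ± 0.32, adjusted p = 0.0328), on the 48.1 CPM of replicate 6, and not without it (0.21 ± 0.22, adjusted p = 0.627). None of 15 markers of segments S1 and S2 held in either direction, and their medians were 0.0040 in all kidneys and 0.16 without replicate 6; the difference between the S3 and the S1 and S2 lists was not tested. In bulk tissue, fewer cells of a type and less RNA per cell cannot be told apart. The mean log2 CPM over the S3 markers was 5.50 to 7.63 in the 7 other DU kidneys, 5.18 in DU replicate 6 and 6.22 to 7.92 in Ta kidneys, so the ranges overlapped. Ta replicate 4 gave the lowest Ta value. Without DU replicates 5 and 6, a choice made after seeing the data, 2 S3 markers and 4 of the 14 brush border genes were called lower, and the medians were -0.45 and -0.31. Acy3, Anpep and Cyp4a3 were not among the genes called there. With Ta replicate 4 left out as well, 3 S3 markers and 6 brush border genes were called lower, at medians of -0.55 and -0.33. Acy3 was then called (-0.55, adjusted p = 0.0251).

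Transcripts of both subunits of glutamate-cysteine ligase, the first step of glutathione synthesis, were lower in DU kidneys. Gclc, the catalytic subunit of glutamate-cysteine ligase, reached 278, 1588 and 4296 CPM in DU kidneys (lowest, median, highest), against 1023, 4708 and 6948 CPM in Ta kidneys. Ta replicate 4 had the lowest Ta value, and the next was 4106 CPM, which only DU replicate 3 exceeded. Altogether 3 DU kidneys lay below every Ta kidney. The log2 fold change was -1.48 ± 0.35 (adjusted p = 0.00278) and -1.28 ± 0.33 without replicate 6 (adjusted p = 0.00567). Gclm, the modifier subunit, had 184, 500.2 and 1027 CPM in DU kidneys and 328, 1064 and 1319.8 CPM in Ta kidneys (-0.91 ± 0.23 and -0.82 ± 0.24). In a fit of the 16 DU and Ta libraries alone, neither Gclc nor Gclm was called. Both are known targets of the transcription factor NRF2. Of 18 tested NRF2 targets these 2 and Me1, malic enzyme (-0.61 and -0.49), held lower, with none higher, beside 4.35% lower and 6.33% higher over all genes. Without DU replicates 5 and 6, Me1 was not called (-0.38, adjusted p = 0.0917), and 2 NRF2 targets were called higher beside 2 lower. With Ta replicate 4 left out as well, 2 were called higher and 3 lower. The list's median was 0.096 and 0.046, and the other 15 members did not hold; Nqo1, the classic NRF2 target, had 3.64 to 25.7 CPM in DU and 7.34 to 12.03 CPM in Ta kidneys and did not pass the test. Catalase, encoded by Cat, ran from 84.4 to 907 CPM in DU kidneys and from 668 to 1414 CPM in Ta kidneys, and fell by 0.93 and 0.73 (SE 0.24 and 0.18; adjusted p = 0.00498 and 0.0032). Slc39a8, the ZIP8 carrier of zinc, manganese and cadmium, had 11.5 to 21.5 CPM in DU and 12.7 to 39.4 CPM in Ta kidneys (-0.86 ± 0.22 and -0.84 ± 0.23).

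Several further genes fell by more than 2 times in both fits. Anxa13, an annexin of epithelial cells, had 0.624, 2.73 and 8.05 CPM in DU kidneys and 2.28, 8.04 and 30.4 CPM in Ta kidneys (-2.09 ± 0.50 and -1.92 ± 0.51). Cndp1, carnosinase 1, had 14.4, 45.1 and 153 CPM in DU and 26.7, 163 and 247 CPM in Ta kidneys (-1.48 ± 0.38 and -1.31 ± 0.38). Nat8f4, of the N-acetyltransferase 8 family, ran from 1.37 to 7.05 CPM in DU kidneys and from 6.45 to 21.6 CPM in Ta kidneys. In 5 DU kidneys Nat8f4 lay below all Ta kidneys, at a log2 fold change of -1.43 ± 0.27 (-1.26 ± 0.26 without replicate 6). Erc2, Unc93a, Zfp648, Tmem236 and Pkd2l2 also fell by more than 2 times, with log2 fold changes of -1.76, -1.37, -1.45, -1.55 and -1.49. The call on Tmem236 was lost without Ta replicate 1 or 2. Without DU replicates 5 and 6 together, Tmem236 and Pkd2l2 were not called. With Ta replicate 4 left out as well, both were called (adjusted p = 0.0319 and 0.0151). Neither was called in a fit of the 16 DU and Ta libraries alone. In Unc93a and Zfp648, DU replicate 6 had the highest DU value, and the fall was steeper without it (-1.82 and -1.80).

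Some regulators and other genes are given next, with differences that were mostly smaller and not all steady. Eya1, a transcription cofactor of nephron progenitors, was at 0.971, 2.25 and 3.13 CPM in DU kidneys, against 3.85, 5.43 and 10.9 CPM in Ta kidneys, so all 8 DU kidneys lay below all 8 Ta kidneys (log2 fold change -1.41 ± 0.29, adjusted p = 0.000535). Rara, the retinoic acid receptor alpha, showed the same separation over a narrow range, 36.8 to 46.5 CPM in DU and 47.2 to 57.9 CPM in Ta kidneys (-0.29 ± 0.081). Sox9, a transcription factor switched on in repairing tubules, was lower in DU kidneys, at 28.5, 38.3 and 52.2 CPM against 41.0, 58.6 and 78.7 CPM in Ta kidneys. Its log2 fold change was -0.69 ± 0.14 and -0.66 ± 0.15, and 7 of 8 DU kidneys lay below all Ta kidneys. Il33, an alarmin cytokine kept in nuclei, fell by 0.59 and 0.43, with 7 of 8 DU kidneys below all Ta kidneys. Scnn1g, the gamma subunit of the collecting duct sodium channel (-0.51 and -0.43), and Ddx58, the RNA sensor RIG-I (-0.54 and -0.46), also lay below all Ta kidneys in 7 of 8 DU kidneys, and neither was called without DU replicates 5 and 6. With Ta replicate 4 left out as well, Ddx58 was called (adjusted p = 0.0381) and Scnn1g was not (adjusted p = 0.0768). Cd59, which blocks the last step of complement attack, had 43.2, 54.8 and 72.6 CPM in DU kidneys and 50.5, 95.6 and 109.9 CPM in Ta kidneys (-0.65 ± 0.12 and -0.64 ± 0.13). Nsdhl and Sc5d, 2 enzymes of late cholesterol synthesis, fell by 0.34 and 0.42. They were the only held genes of the 18 tested in that list, beside 4.35% of all genes that held lower. Nsdhl lost its call when any of 8 libraries was left out (DU replicates 1, 3 and 4 and Ta replicates 1, 2, 5, 6 and 8).

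With the balance of small and very large proteins as a covariate, Cyp2c11, Cyp2c24, Slc6a20, Eya1, Rara, Sox9, Cd59, Erc2, Unc93a, Zfp648 and Nat8f4 held lower, and Cyp2c11 kept a log2 fold change of -2.93. No member of the S3, brush border, organic ion or NRF2 lists held under that covariate. The values there were -1.005 for Mme (adjusted p = 0.07), -0.91 for Slco4c1 (adjusted p = 0.138), -1.07 for Gclc (adjusted p = 0.116) and -0.73 for Gclm (adjusted p = 0.129). The other genes given above as held lower did not hold there either, among them Anxa13 (-1.81), Cndp1 (-1.11), Tmem236 (-0.62), Slc15a2 (-0.89) and Il33 (-0.52), with adjusted p-values of 0.0637, 0.163, 0.566, 0.157 and 0.0775.

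Of the metallothionein genes, Mt1m and Mt2A were higher in DU kidneys. Mt1m had 3.21, 6.83 and 49.0 CPM in DU kidneys (lowest, median, highest), against 0.897, 1.80 and 2.06 CPM in Ta kidneys, and all 8 DU kidneys lay above all 8 Ta kidneys. The highest value was that of DU replicate 6 and the next, 11.5 CPM, that of replicate 5. Mt1m rose by a log2 fold change of 2.82 ± 0.42 (adjusted p = 4.07e-06) and of 2.02 ± 0.33 without replicate 6 (adjusted p = 1.86e-05), and it kept its call with the balance covariate (1.66, adjusted p = 0.0148). Mt2A, the more abundant form, had 425, 716 and 5959 CPM in DU and 328, 477 and 609 CPM in Ta kidneys. In Mt2A, 5 of 8 DU kidneys exceeded every Ta kidney, and replicate 6 stood far above the other 7, of which the highest, replicate 5, had 1382 CPM. The log2 fold change was 1.63 ± 0.34 with replicate 6 and 0.79 ± 0.22 without it (adjusted p = 0.000672 and 0.0126), and 0.60 without replicates 5 and 6 (adjusted p = 0.0647). With Ta replicate 4 left out as well, Mt2A was called (0.67, adjusted p = 0.0396). Mt2A lost its call with the balance covariate (0.64, adjusted p = 0.348). Mt1 did not pass the test, at 235, 441 and 1971 CPM in DU and 274, 375 and 486 CPM in Ta kidneys (0.90 ± 0.33, adjusted p = 0.0536; 0.51 ± 0.30 and 0.287 without replicate 6). Mt3 was near the limit of detection, at means of 0.851 CPM in DU and 0.274 CPM in Ta kidneys. Metallothionein genes are close copies of each other, so the split of reads between Mt1m, Mt1 and Mt2A is uncertain. Of the 10 tested genes of metallothionein and zinc handling, Mt2A was the single one that held higher and Slc39a8 the single one that held lower. Over all genes 6.33% held higher and 4.35% lower. Mt1m is not on that list of 10.

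The promoters of Mt2A and Mt1 are shown because metals act on these genes through the metal response element, bound by the factor MTF-1. Both come from RefSeq (GRCr8), 250 bases before to 50 after the gene's start, minus strand, at chr19:10838659-10838958 for Mt2A and chr19:10832926-10833225 for Mt1. The core searched was TGCACNC or TGCGCNC on both strands, where N is any base, and matches stand in capitals.
Mt2A promoter: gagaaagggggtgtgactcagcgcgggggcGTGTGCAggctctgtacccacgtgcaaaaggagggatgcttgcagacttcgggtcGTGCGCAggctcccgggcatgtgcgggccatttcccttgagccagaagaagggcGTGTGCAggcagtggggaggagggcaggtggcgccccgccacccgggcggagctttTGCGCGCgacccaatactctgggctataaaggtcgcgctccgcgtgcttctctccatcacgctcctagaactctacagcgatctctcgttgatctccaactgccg
Mt1 promoter: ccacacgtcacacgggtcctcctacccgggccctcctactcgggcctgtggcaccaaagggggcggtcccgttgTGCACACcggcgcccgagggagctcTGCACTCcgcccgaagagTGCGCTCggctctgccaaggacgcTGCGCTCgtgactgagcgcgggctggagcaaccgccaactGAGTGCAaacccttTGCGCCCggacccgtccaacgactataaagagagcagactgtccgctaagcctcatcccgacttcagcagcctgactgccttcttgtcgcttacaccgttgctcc
Mt2A held 4 matches and Mt1 held 6. Across the table the core was common: 34.1% of 775 promoters of held higher genes, 36.0% of 531 of held lower genes and 35.0% of 12023 of all tested genes had at least 1 match. Hspb1, the small heat shock protein HSP27, is shown for its heat shock elements, searched as GAANNTTC on both strands (chr12:26432252-26432551, minus strand).
Hspb1 promoter: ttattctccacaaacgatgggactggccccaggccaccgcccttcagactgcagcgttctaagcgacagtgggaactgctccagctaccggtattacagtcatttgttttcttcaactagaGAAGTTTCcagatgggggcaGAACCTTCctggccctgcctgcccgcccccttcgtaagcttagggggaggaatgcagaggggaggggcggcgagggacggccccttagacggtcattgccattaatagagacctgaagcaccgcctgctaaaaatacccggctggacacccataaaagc
It held 2 matches. Such elements stood in 4.65% of promoters of held higher genes, 7.91% of held lower genes and 5.91% of all tested genes. The antioxidant response element, searched as TGACNNNGC, had no match in the Gclc window and stood in 17.4%, 13.9% and 14.2%. A match describes letters in this window and is not a bound site.

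Hspb1 itself had 49.6, 71.6 and 123.2 CPM in DU kidneys and 23.5, 35.3 and 73.1 CPM in Ta kidneys, with a log2 fold change of 1.03 ± 0.20 and 0.95 ± 0.20 without replicate 6. All 8 DU kidneys lay above the Ta median, and 4 lay above the highest Ta kidney (replicate 4). Of 17 tested cytosolic heat shock genes 3 held higher, beside 6.33% of all genes. They were Hspb1, Ahsa1 (0.35 and 0.42), which activates HSP90, and Hspa1b (0.77 and 0.79). Hspa1b lost its call when any of 6 libraries was left out (DU replicates 2 and 8 and Ta replicates 1, 2, 5 and 7). Hspa8, Hsp90aa1 and Hsp90ab1 did not pass the test in either fit. None of the 17 held with the balance covariate, and the values were 0.65 for Hspb1 and 0.23 for Ahsa1 (adjusted p = 0.0716 and 0.148).

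**Figure D3:**
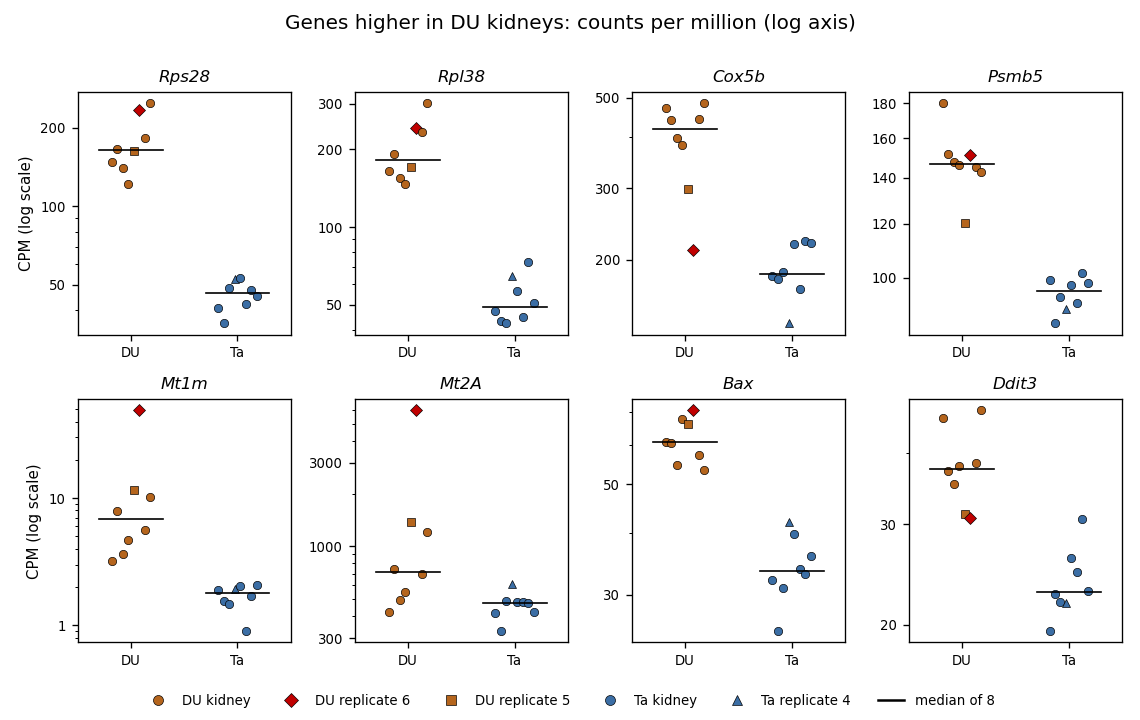
CPM (log axis) of 8 genes that held higher, 1 point per kidney, DU left and Ta right, with a bar at the median of 8. The groups do not overlap for Rps28, Rpl38, Psmb5, Mt1m, Bax and Ddit3, while for Cox5b the lowest DU kidney and for Mt2A 3 DU kidneys lie within the Ta range.

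The integrated stress response slows protein synthesis and raises the transcription factor ATF4 and its target CHOP. Its gene, Atf4, had 159, 193 and 526 CPM in DU kidneys, against 119.6, 143.8 and 148 CPM in Ta kidneys, with no overlap (0.75 ± 0.16, adjusted p = 0.0011; 0.50 ± 0.12 and 0.00338 without replicate 6). Ddit3, which encodes CHOP, had 30.7, 37.5 and 47.5 CPM in DU and 19.5, 22.8 and 30.6 CPM in Ta kidneys, also with no overlap (0.68 ± 0.13 and 0.75 ± 0.14). With Ddit4, a brake on mTOR (0.70 and 0.52), 3 of 13 tested genes of this response held higher, beside 6.33% of all genes. Ddit4 was not called without DU replicates 5 and 6. Fellow targets of this response, Asns, Trib3, Chac1, Psat1 and Sesn2, did not hold. Asns had a log2 fold change of -0.10 ± 0.17 without replicate 6. Manf, a protein secreted on endoplasmic reticulum stress, had 72.5, 82.6 and 135.6 CPM in DU and 42.1, 48.9 and 56.4 CPM in Ta kidneys (0.85 ± 0.13 and 0.76 ± 0.12; adjusted p = 6.36e-06 and 1.20e-05). Manf was 1 of 4 endoplasmic reticulum chaperone genes of 17 that held higher, with Ppib (0.52), Sdf2l1 (0.74) and Creld2 (0.35), while Canx, calnexin, held lower (-0.27). Over all genes 6.33% held higher and 4.35% lower. Creld2 lost its call when any of 7 libraries was left out (DU replicates 1 and 3 and Ta replicates 1, 5, 6, 7 and 8). Canx lost it with any of 10 (DU replicates 1, 2, 4, 5 and 8 and Ta replicates 1, 2, 3, 6 and 8). Hspa5, the master chaperone BiP, did not pass the test (0.23 ± 0.093, adjusted p = 0.0924). With the balance covariate Manf held (0.54) and no gene of the integrated stress response did (0.22 for Atf4 and 0.37 for Ddit3; adjusted p = 0.456 and 0.0947).

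Bax, which opens the outer mitochondrial membrane in apoptosis, was among the steadiest differences. It had 53.4, 60.8 and 70.5 CPM in DU kidneys and 25.3, 33.4 and 42.0 CPM in Ta kidneys, with no overlap. Its log2 fold change was 0.85 ± 0.11 (adjusted p = 4.62e-07), 0.85 without replicate 6 and 0.56 with the balance covariate. Bax and Btg2 (0.74 and 0.52) were the 2 of 18 tested p53 targets that held higher. Cdkn1a, the p53 target p21, had 13.2 to 29.9 CPM in DU and 10.3 to 24.7 CPM in Ta kidneys and did not pass the test (adjusted p = 0.284); Mdm2, Ccng1 and Ddb2 had log2 fold changes of -0.038, 0.04 and -0.046. Btg2 lost its call without DU replicates 5 and 6 together and with the balance covariate. Of 22 DNA repair genes 2 held higher, Mgmt, which removes alkyl groups from guanine (0.64 ± 0.15 and 0.74 ± 0.15), and Apex1, the main abasic site nuclease (0.46 ± 0.11 and 0.37 ± 0.10), while Xpc held lower (-0.22) and lost its call when any of 7 single libraries was left out (DU replicates 4, 5 and 7 and Ta replicates 1, 2, 6 and 8). Over all genes 6.33% held higher, so the 2 of 18 p53 targets and the 2 of 22 repair genes are near the background. With the balance covariate 0 of the 22 repair genes held (0.32 for Mgmt and 0.15 for Apex1, adjusted p = 0.234 and 0.468).

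Antioxidant enzymes went both ways. Of 16 tested genes of peroxiredoxins, dismutases and peroxidases 4 held higher and 1, Cat, lower, beside 6.33% higher and 4.35% lower over all genes. The 1 lower gene is near that background. Prdx5, a mitochondrial peroxiredoxin, had 253, 378 and 693 CPM in DU and 166, 229 and 305 CPM in Ta kidneys (0.78 ± 0.13 and 0.66 ± 0.11). Txn1, thioredoxin, had 264, 370.2 and 462 CPM in DU and 179, 230.3 and 257 CPM in Ta kidneys, with no overlap (0.71 ± 0.12 and 0.69 ± 0.12). Sod1, the cytosolic superoxide dismutase (0.63 and 0.77), and Gpx1, glutathione peroxidase 1 (0.60 and 0.72), were the others. In Sod1, replicate 6 was below every Ta kidney at 325 CPM. Sod2, the mitochondrial form, was called with all kidneys (1.68 ± 0.38), on the 3598 CPM of replicate 6, and not without it (0.17 ± 0.061, adjusted p = 0.0603). Prdx5 and Txn1 held with the balance covariate, and Sod1, Gpx1 and Cat did not.

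The most uniform rise was that of genes of small proteins of the ribosome and the mitochondrion. Of 73 tested cytosolic ribosomal protein genes 63 held higher and none lower, beside 6.33% higher and 4.35% lower over all genes. All 73 had a positive log2 fold change, with medians of 0.59 in all kidneys and 0.55 without replicate 6. Rps28 had 121.7, 164 and 249.5 CPM in DU kidneys, against 35.5, 46.5 and 52.96 CPM in Ta kidneys (1.94 ± 0.18, adjusted p = 6.84e-11). Rpl38 (1.92 ± 0.19) and Rps21 (1.63 ± 0.16) rose nearly as much, and for all of these every DU kidney lay above every Ta kidney. Ribosomal protein genes have many near-identical pseudogene copies, so their counts are uncertain. Of 73 nuclear genes of oxidative phosphorylation 48 held higher and none lower, with medians of 0.45 and 0.56. Ndufa1, a subunit of complex I, had 75.3, 115 and 154 CPM in DU and 42.2, 53.2 and 56.1 CPM in Ta kidneys (1.19 ± 0.11). Cox5b, a subunit of cytochrome c oxidase, had 212, 419.8 and 486 CPM in DU and 139.5, 185 and 223 CPM in Ta kidneys, and rose by 1.05 and, without replicate 6, by 1.17. Its lowest DU value was that of replicate 6. Tomm7, of the mitochondrial import pore, gave 1.45 ± 0.12 and was 1 of 9 held higher genes of 23 for mitochondrial chaperones, proteases and import. The 13 genes of the mitochondrial genome did not follow: ND3 alone held (0.99 ± 0.20), and their median was -0.11 in all kidneys and 0.0068 without replicate 6. Of 32 proteasome genes 15 held higher and none lower, with a median of 0.26; Psmb5, a catalytic subunit, had 120.2, 147 and 180.3 CPM in DU and 85.8, 95.7 and 101.6 CPM in Ta kidneys (0.64 ± 0.083). Cops9, Tmem256 and Naa38, named for their small p, rose by 1.12, 1.25 and 0.99 with no overlap.

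The ribosomal and the very large protein lists themselves define the balance, so the values of both lists with it as a covariate are partly set by that. This balance differed between the DU and Ta libraries. Its DU mean, 2.34, lay between those of the W (2.017) and Co (2.448) kidneys. With that balance as a covariate, 27 ribosomal, 23 oxidative phosphorylation, 6 proteasome and 4 import genes held, and the medians were 0.18, 0.33, 0.022 and 0.067. Rps28 gave 1.41, Rpl38 1.36, Cox5b 0.94 and Psmb5 0.45 in that fit. At the other end, 3 of 36 tested genes of very large proteins held lower, beside 4.35% of all genes. They were Birc6 (-0.39), Vps13a (-0.42) and Fat1 (-0.44), and the median of the 36 was -0.097. Fat1 lost its call when any of 7 single libraries was left out (DU replicates 2, 4 and 8 and Ta replicates 1, 2, 3 and 6). With the balance covariate 5 of the 36 held higher and 0 lower, with a median of 0.15, and without DU replicates 5 and 6 Vps13a was not called (adjusted p = 0.0522).

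Hemoglobin transcripts were higher in DU kidneys. Hbb had 128.2, 177 and 349.9 CPM in DU kidneys, against 55.0, 82.4 and 102.1 CPM in Ta kidneys, with no overlap. It rose by a log2 fold change of 1.29 ± 0.30 (adjusted p = 0.00192), of 1.38 ± 0.30 without replicate 6 and of 1.74 with the balance covariate. Hbb-b1 (0.88), Hbb-bs (0.81) and Hba-a2 (0.67) also held, which makes 4 of 8 tested red blood cell genes, beside 6.33% of all genes. All 8 had a positive value with a median of 0.74. Hbb was the 1 gene of these that held with the balance covariate, and Hbb-b1 had 0.98 (adjusted p = 0.0562). Averaged over the list, log2 CPM was 5.11 to 6.21 in DU kidneys, replicate 6 included, and 4.39 to 5.05 in Ta kidneys. Hba-a2 lost its call without DU replicate 2 or 8, and Hbb-bs without DU replicate 2; these 2 kidneys had the highest hemoglobin values. Hemoglobin genes are also close copies of each other, and the amount of blood in a kidney sample was not measured.

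Among other held higher genes, Fabp4, a fatty acid carrier of adipocytes, macrophages and capillaries, had 10.1, 21.5 and 90.8 CPM in DU and 4.22, 6.19 and 11.8 CPM in Ta kidneys (2.10 ± 0.44 and 1.65 ± 0.41). It was the single gene that held of 9 tested adipocyte markers. Col7a1, the anchoring fibril collagen, had 7.14, 12.4 and 132.3 CPM in DU and 2.29, 4.25 and 10.6 CPM in Ta kidneys (2.42 ± 0.44, and 1.25 ± 0.29 without the 132.3 CPM of replicate 6). Igfbp6, which binds insulin-like growth factor II, ran from 3.21 to 18.8 CPM in DU and from 1.33 to 8.63 CPM in Ta kidneys (1.57 ± 0.55), and its call was lost when any of 10 libraries was left out (DU replicates 2, 4, 5 and 8 and Ta replicates 1, 2, 3, 6, 7 and 8). Akr1b8, an aldo-keto reductase, Ifi27l2b and Saal1 rose by 1.69, 1.38 and 3.50, and by 1.36, 1.38 and 1.74 without replicate 6. Without replicates 5 and 6 neither Akr1b8 nor Ifi27l2b was called. With Ta replicate 4 left out as well, these 2 genes were called (1.77 and 1.29, adjusted p = 0.0039 and 0.0438). Igfbp6 held with the balance covariate (2.08), while Fabp4 (1.56), Col7a1 (1.72), Akr1b8, Ifi27l2b and Saal1 did not, with adjusted p-values of 0.0869, 0.0559, 0.401, 0.255 and 0.111. Fcgrt, the receptor that salvages IgG and albumin, differed little and steadily, at 136.8 to 186 CPM in DU and 98.4 to 136.2 CPM in Ta kidneys (0.46 ± 0.079).

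Hpx and Hp, plasma proteins of the acute phase, were highest in DU replicates 5 and 6. Hpx, hemopexin, was at 23.4 CPM in DU replicate 5 and 21.4 in replicate 6, and at 1.22 to 2.64 CPM in the other 6, against 0.820 to 1.96 CPM in Ta kidneys. Hp, haptoglobin, had 28.5 and 14.7 CPM in those 2 kidneys and 1.58 to 3.61 CPM in the other DU kidneys, against 0.322 to 3.64 CPM in Ta kidneys. Both held (2.48 and 2.02 for Hpx, 1.97 and 1.78 for Hp) and neither was called without replicates 5 and 6 (0.74 and 0.53; adjusted p = 0.408 and 0.343). Hp gave 1.24 without replicate 5 alone. Alb, albumin, held through 75.05 CPM in replicate 5, against 0.158 to 2.26 CPM in the other 7 DU kidneys and 0.195 to 1.51 CPM in Ta kidneys; without replicate 5 its log2 fold change was 0.34 (adjusted p = 0.863). The fibrinogen genes Fgb and Fgg held as well (6.25 and 1.78 for Fgb, 5.94 and 1.99 for Fgg), and without replicates 5 and 6 their adjusted p-values were 0.161 and 0.418. Fgb had 3887 CPM in replicate 6, 57.6 in replicate 7, 56.0 in replicate 5 and 3.08 to 13.1 CPM in the other 5 DU kidneys, against 1.54 to 19.6 CPM in Ta kidneys. Without DU replicates 5 and 6 and Ta replicate 4, its highest Ta kidney, Fgb was called (1.84, adjusted p = 0.046). Of these genes Hp alone held with the balance covariate (1.68, adjusted p = 0.0487).

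No gene of the macrophage, neutrophil, chemokine or collagen lists held higher. With all kidneys, 5 of 16 macrophage and dendritic cell genes, 8 of 18 chemokine and NF-kB genes, 2 of 6 neutrophil genes and 2 of 26 collagen and matrix genes were called higher. The share over all genes was 7.89%. None of these list members was called higher without replicate 6. Under the balance covariate 1 collagen and matrix gene held higher. The neutrophil list averaged -1.69 to 0.37 log2 CPM in the 7 other DU kidneys, 2.00 in replicate 6 and -2.53 to -1.06 in Ta kidneys, so that 6 of 8 DU kidneys lay above every Ta kidney. Its median log2 fold change was 1.24 in all kidneys, 0.99 without replicate 6 and 0.85 without replicates 5 and 6. The median log2 fold change of the macrophage list was 1.02 in all kidneys, 0.58 without replicate 6 and 0.31 without replicates 5 and 6. With Ta replicate 4 left out as well, the median was 0.63 for the macrophage list and 1.15 for the neutrophil list. Mean log2 CPM of the macrophage list ran from 2.99 to 4.97 in the 7 other DU kidneys, with 5.78 in replicate 6, and from 2.35 to 4.72 in Ta kidneys. Collagen and matrix genes ran from 4.95 to 6.67 in the 7 other DU kidneys, with 6.78 in replicate 6, and from 5.02 to 6.64 in Ta kidneys. In both the macrophage and the collagen list the highest of the 7 other DU kidneys was replicate 5 and the highest Ta kidney was replicate 4. Endothelial, pericyte and lymphocyte markers had no held gene. Of 14 podocyte genes Cd2ap alone held, lower (-0.33 and -0.29), beside 4.35% of all genes. Cd2ap lost its call when any of 5 single libraries was left out (DU replicate 8 and Ta replicates 1, 2, 3 and 6). Thick ascending limb, distal tubule and intercalated cell markers had none. Among 10 urothelial markers none was called with all kidneys and 3 were without replicate 6, among them Krt15 at 10.97 to 23.3 CPM in the 7 other DU kidneys and 4.36 to 14.1 CPM in Ta kidneys (1.23 ± 0.33). The list's median was 1.02 and 1.15, and how much renal pelvis each sample held was not measured.

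**Figure D4:**
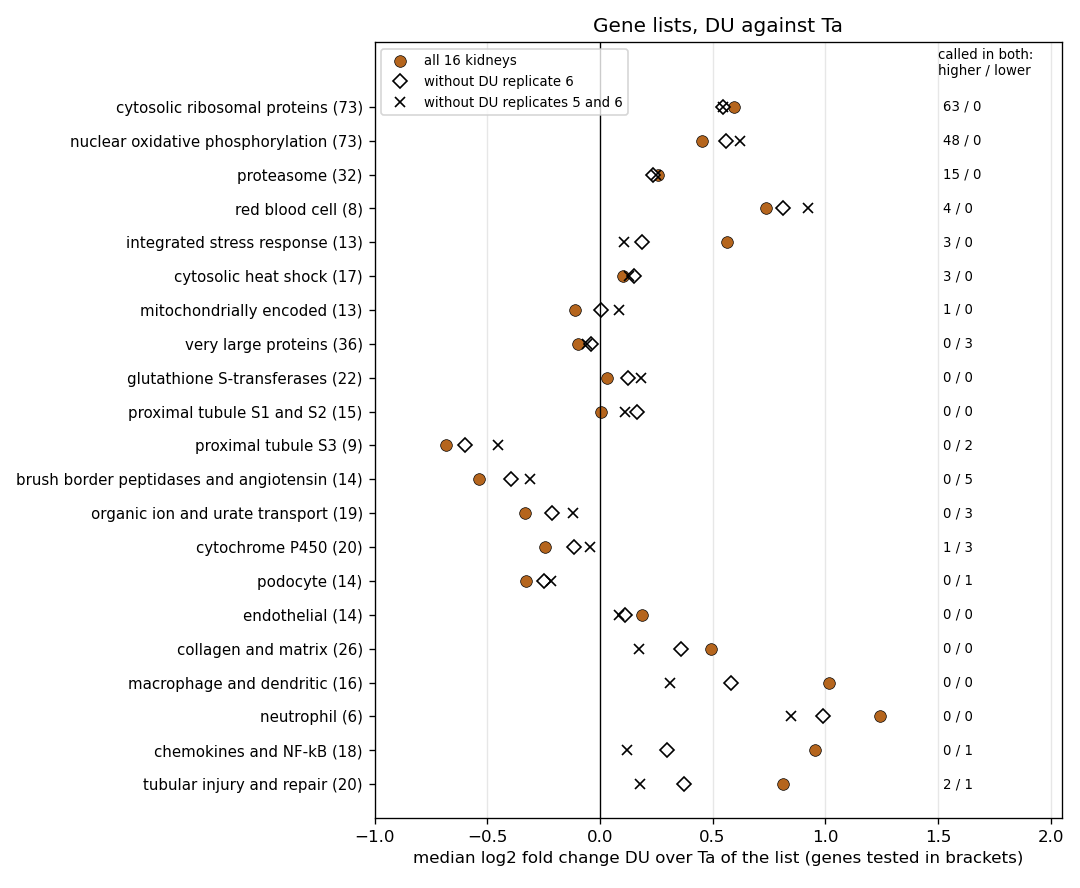
Median log2 fold change of DU over Ta for 21 gene lists, with all 16 kidneys (circles), without DU replicate 6 (diamonds) and without DU replicates 5 and 6 (crosses); the right column counts genes that held. Ribosomal, oxidative phosphorylation and red blood cell lists stay between 0.45 and 0.92, whereas the macrophage, chemokine and injury lists move toward 0 as kidneys are left out.

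The tubular injury transcripts Havcr1, Lcn2 and Timp1 did not hold. Havcr1, which encodes the injury marker KIM-1, had 11.99 to 193 CPM in 7 DU kidneys, 1179 CPM in replicate 6 and 3.86 to 97.5 CPM in Ta kidneys. It was called with all kidneys (2.61 ± 0.77, adjusted p = 0.0151) and not without replicate 6 (0.74 ± 0.62, adjusted p = 0.506). Lcn2, which encodes NGAL, had 10.9 to 155 CPM in 7 DU kidneys, 8232 CPM in replicate 6 and 5.10 to 124.8 CPM in Ta kidneys (5.16 ± 1.10 and 0.998 ± 0.69). Timp1 and Hmox1 behaved likewise, at 2.11 and 1.88 with replicate 6 and 0.65 and 0.75 without it (adjusted p = 0.378 and 0.262). Spp1, osteopontin, and Clu, clusterin, did not pass the test in either fit (0.87 ± 0.59 and 1.19 ± 0.50). Neither did Umod, Kl, Slc34a1 and Cyp24a1, with log2 fold changes of -0.59, -0.39, -0.37 and -0.27. Among the 20 tested genes of tubular injury and repair, 6 were called higher with all kidneys and 2, Fgb and Fgg, held, while Sox9 held lower. The shares over all genes were 7.89% called higher with all kidneys, 6.33% held higher and 4.35% held lower. The list's mean log2 CPM was 4.43 to 6.38 in 7 DU kidneys, 8.14 in replicate 6 and 3.88 to 5.91 in Ta kidneys. Replicate 4 was the highest Ta kidney in both Havcr1 and Lcn2, at 97.5 and 124.8 CPM.

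Replicate 6 is 1 library and is given as a description. Of 11044 genes with at least 5 CPM, 269 lay more than 2 times above and 667 more than 2 times below all 15 other DU and Ta kidneys, whereas the other 15 libraries had at most 2 such genes above and 25 below. Wide gaps upward were found in genes of acute injury and granulocyte recruitment. C3, complement component 3, had 8634 CPM against 17.7 to 217 in the 7 other DU kidneys and 10.7 to 175 in Ta kidneys. Fga, fibrinogen alpha, had 4330.3 CPM against 21.1 to 129.9 and 19.3 to 56.4 CPM. The neutrophil chemoattractants Cxcl1, Cxcl2 and Cxcl6 had 247, 53.2 and 179 CPM, with at most 5.74, 1.06 and 3.43 CPM in the other DU kidneys. S100a8, a granulocyte protein, had 142.5 CPM against at most 3.92 in the other DU kidneys and 0.426 in Ta kidneys. Wide gaps downward were found in genes of the proximal tubule: Slc22a6 had 14.8 CPM against 529 to 1071 in the other DU kidneys, Miox, the first enzyme of inositol breakdown, 45.4 against 1646 to 3837, and Slc34a1, the phosphate carrier, 24.8 against 1863 to 3266. Acsm5, Dio1, Dnase1, Nat8f5 and Pfn3 were likewise far below all other kidneys, and Pfn3 had 0 counts.

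**Figure D5:**
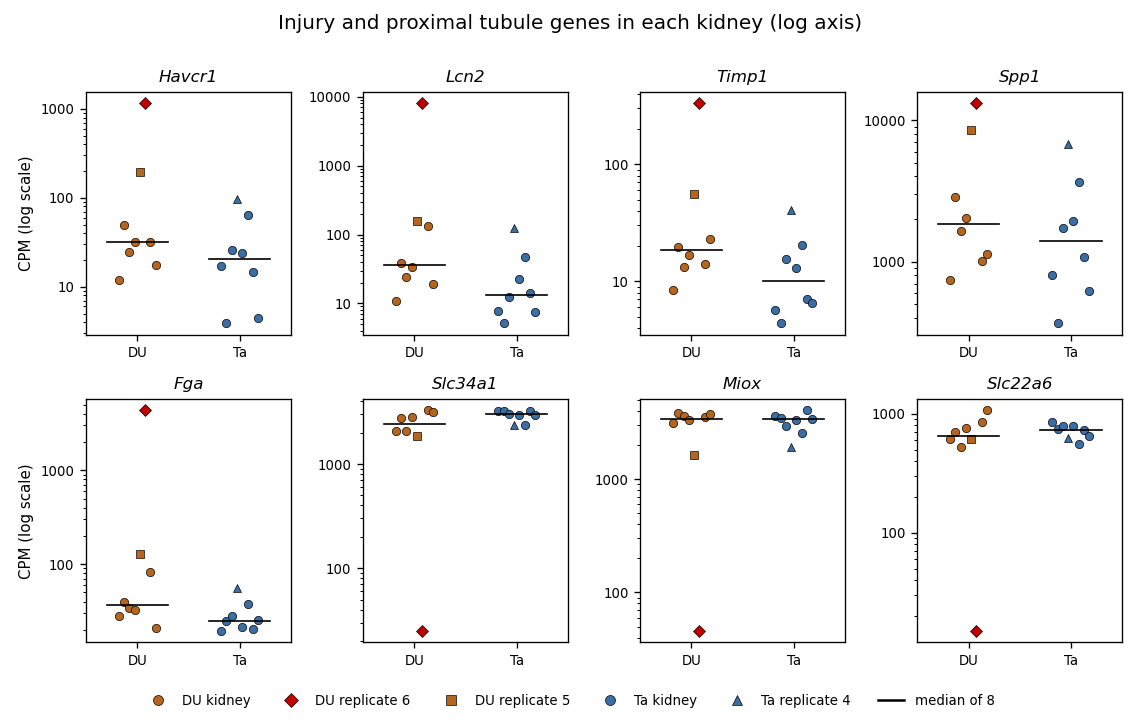
CPM (log axis) of injury genes (Havcr1, Lcn2, Timp1, Spp1, Fga) and proximal tubule genes (Slc34a1, Miox, Slc22a6), 1 point per kidney, DU left and Ta right, with a bar at the median of 8. Replicate 6 of the DU group lies far below all other kidneys in the proximal tubule genes, and in Havcr1, Lcn2, Timp1 and Spp1 DU replicate 5 is the DU kidney next below it and Ta replicate 4 the highest Ta kidney.

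To see the DU levels beside metals other than Ta, DU kidneys were also tested against the mean of the W, Co, Al and Pb kidneys, which uses no Ta library. In this contrast 2655 genes held higher in DU kidneys (16.8% of 15833) and 2287 lower (14.4%). Of the 1003 genes that held higher against Ta, 10.3% also held higher here and 5.48% held lower. Most genes that held higher against Ta were therefore not called higher than in the 4 other metals. Of the 689 genes that held lower against Ta, 48.8% also held lower here and 0.871% held higher. Both contrasts use the same DU kidneys and are therefore not independent. Cyp2c11 averaged 4.12 CPM in DU kidneys, 22.1 CPM in Pb, 48.2 CPM in Co, 52.8 CPM in Al and 63.9 CPM in W kidneys, and 40.4 CPM in Ta kidneys, and its log2 fold change was -3.40 ± 0.56 against W, Co, Al and Pb (adjusted p = 1.53e-05). Mme averaged 111 CPM in DU kidneys and 245 to 340.2 CPM in the 4 other metals (-1.44 ± 0.25). Gclc averaged 1756 CPM in DU kidneys and 3838 to 5787 CPM in the 4 others (-1.48 ± 0.30). As lists, 6 of 9 S3 markers, 11 of 19 organic ion transport genes and 8 of 14 brush border and angiotensin genes held lower in DU kidneys, while 0, 4 and 5 held higher. Hbb averaged 202 CPM in DU kidneys and 56.9 to 97.99 CPM in the others (1.44 ± 0.21, adjusted p = 3.15e-06). Mt1m averaged 11.99 CPM in DU kidneys, or 6.71 without replicate 6, and 2.19, 3.24, 5.03 and 6.84 CPM in W, Co, Al and Pb kidneys (1.599 ± 0.28, and 0.77 without replicate 6). Bax did not stand apart, at 61.4 CPM in DU kidneys and 43.2, 52.9, 57.7 and 77.9 CPM in W, Co, Al and Pb kidneys (adjusted p = 0.292). Marker lists of several cell types differed in this contrast: 12 of 14 endothelial, 23 of 26 collagen, 13 of 16 macrophage and 11 of 14 podocyte genes held higher in DU kidneys, with none lower. With the mean levels of the S1 and S2, principal cell and endothelial lists as covariates, the counts of the whole contrast were 32 higher and 233 lower, and with 3 surrogate variables 9 and 37. Of the ribosomal list 2 genes held higher and 0 lower, and of the oxidative phosphorylation list 1 and 7.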

How the data were processed

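RNA was extracted from rat kidney with TRIzol, phase-lock separation and DNase, and libraries were made and sequenced by a company, per the labels' protocols. The authors deposited raw read counts per gene for 47 libraries; per the submitters' processing notes, STAR 2.7.2a, featureCounts of Subread 1.6.4 and the build mRatBN7.2 were used, while the annotation, strand setting and treatment of reads matching several places are not given in the sources used here. Lines left out of library sizes and tests held 0.0317% of counts. The counts were analysed with edgeR 4.0.16 in R 4.3.3 (TMM scaling, filterByExpr, quasi-likelihood F test, Benjamini-Hochberg adjusted p under 0.05) in 1 fit of 47 libraries and 6 metals, repeated with 46 libraries without DU replicate 6. CPM values are TMM-scaled, log2 CPM uses a prior count of 2, and SE is the log2 fold change divided by the root of F. Gene scripts were tested on simulated data. There the rule for held genes recovered 85.1% of 4-fold, 61.2% of 2-fold and 42.4% of 1.5-fold changes, with 2 false calls. A gene that did not hold may therefore still differ.

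The members and lists were chosen with earlier results of these data known. Genes were named by rule: up to 10 held genes a side by the smaller fold change of the 2 fits; the 10 with the smallest larger p; up to 2 held members of each list; a panel of kidney genes; the widest gaps of replicate 6; and genes that also passed against the other metals, mostly with a minimum of 5 CPM. Other list members (such as Anpep, Dpp4, Cat, Sod1, Gpx1, Krt15, C3 and the genes that did not pass) were named after their values were seen, and a few list members are not reported here. The fits have no replicate block, since shared replicate numbers did not pair the animals. No 2 libraries of a group agreed within sampling noise. Each library has its own animal number; p-values measure the spread between these animals. Promoters came from RefSeq (GRCr8) and matched 12023 of 15868 tested genes by symbol. Alternatives were other scalings, filters, tools, covariates, thresholds and each library left out; leaving out DU replicates 5 and 6, with or without Ta replicate 4, was added after seeing the data.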

Additional observations from a re-analysis of the deposited data

Results flagged for a closer look

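For the genes named in the text, each group of 8 kidneys was searched for a highest or lowest library whose gap to the next one, on the log2 scale, was wide for the group's whole range (Dixon's test at 95%). Of 224 groups examined 47 were picked out, where chance gives about 1 in 20, and genes that share a library are not independent of each other. DU replicate 6 accounted for 30 of them, Ta replicate 4 for 13, Ta replicate 7 for 2, and DU replicate 5 and Ta replicate 6 for 1 each. Part of the genes were named because replicate 6 stood apart in them, so its number is partly set by that choice.

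DU replicate 6 was far above the other 7 DU kidneys, at 49.0 CPM for Mt1m, 135.6 CPM for Manf, 5959 CPM for Mt2A, 8634 CPM for C3 and 179 CPM for Cxcl6. Values of the same kind in this kidney were 3887 CPM for Fgb, 330.0 CPM for Ppib, 121.1 CPM for Hmox1, 247 CPM for Cxcl1 and 4330.0 CPM for Fga. It also stood high with 337 CPM for Saal1, 526 CPM for Atf4, 8232 CPM for Lcn2, 53.2 CPM for Cxcl2 and 132.3 CPM for Col7a1.

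These are genes of injury, acute phase, chemotaxis and metal binding for the most part. The same kidney was far below the others, at 3.21 CPM for Igfbp6, 7.45 CPM for Kl, 1.92 CPM for Dio1, 45.4 CPM for Miox and 14.8 CPM for Slc22a6. Further low values of it were 94.0 CPM for Enpep, 24.8 CPM for Slc34a1, 3.43 CPM for Dnase1, 0.148 CPM for Nat8f5 and 1.14 CPM for Slc7a12. Also low in it were 20.6 CPM for Il33, 0.258 CPM for Acsm5, 0.0738 CPM for Matn1, 0 CPM for Pfn3 and 1.37 CPM for Nat8f4. Most of the low ones are transporters and enzymes of the proximal tubule; Igfbp6 is not.

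Ta replicate 4 was far below the other 7 Ta kidneys, at 26.7 CPM for Cndp1, 86.2 CPM for Mme, 68.5 CPM for Slc15a2, 328 CPM for Gclm, 109 CPM for Kl and 75.9 CPM for Dio1. Its other low values were 2.03 CPM for Erc2, 50.5 CPM for Cd59, 12.7 CPM for Slc39a8, 1023 CPM for Gclc, 1716 CPM for Umod and 166 CPM for Slc7a12. In this kidney Cxcl2 stood high, at 0.428 CPM, against at most 0.0772 CPM in the other Ta kidneys. Most of its low genes are ones that held lower in DU kidneys. Many genes were named because they held lower, so this overlap is partly set by that choice. The count of held lower genes was 912 without this Ta kidney and 689 with it.

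Alb was at 75.05 CPM in DU replicate 5, with at most 2.26 CPM in the other DU kidneys. Mt1m was at 0.897 CPM in Ta replicate 6, with at least 1.47 CPM in the other Ta kidneys. In Ta replicate 7, Apold1, a gene of endothelial cells, had 0 CPM where the other Ta kidneys had at least 0.568 CPM, and Psmb6 had 92.1 CPM where they had at most 71.1 CPM.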

How the results depend on the processing

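Counts below are genes higher then lower in DU kidneys. Held counts were 1003 and 689, those with all 16 kidneys 1252 and 1172, and those without replicate 6 1187 and 760. Limma voom gave 2155 and 2393 with all kidneys, 2439 and 1919 without replicate 6 and 2143 and 1916 held, and 4210 higher against the other metals. With the balance of small and very large proteins as a covariate they were 343 and 244, 571 and 254, and 342 and 217. Cell make-up covariates gave 1055 held lower and, against the other metals, 32 and 233; 3 surrogate variables gave 9 and 37 there. A tested fold of at least 1.5 left 106 and 8 with all kidneys, 92 and 4 without replicate 6, 75 and 3 held, and 178 and 90 against the other metals. At an adjusted p of 0.1, 1182 were lower without replicate 6 and 1084 held lower. Without DU replicates 5 and 6, 599 were lower, and 798 with Ta replicate 4 left out as well. The cause was not tested. DESeq2 gave 1175 and 769 held, of which 999 and 664 are shared with the held genes. A fit of the 16 DU and Ta libraries alone gave 875 and 744 held, of which 811 and 518 are shared.

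Leaving out 1 library moved the counts with all kidneys between 1113 and 1647 higher and between 579 and 1183 lower, and without replicate 6 between 970 and 1337 higher and between 478 and 1037 lower. Held counts ran between 856 and 1203 higher and between 393 and 912 lower, and counts against the other metals between 1890 and 2882 higher and between 1676 and 2519 lower. Lower counts moved by more than 1.5 times with all kidneys without DU replicate 4 (775), 5 (752) or 6 (760) or Ta replicate 1 (633), 2 (579), 3 (763) or 8 (707). They did so without replicate 6 on leaving out DU replicate 8 (499) or Ta replicate 2 (478), and among held genes on leaving out DU replicate 8 (444) or Ta replicate 1 (442) or 2 (393). Same-numbered DU and Ta libraries did not deviate together (median correlation of their deviations 0.036 over 8 pairs, from -0.063 to 0.24), and none correlated best with its own number, so they share only a number; with a replicate block the held counts were 1055 and 701.

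Of 86 named genes called in the main fits, 71 kept the call whichever library was left out, 52 lost it with the balance covariate and 18 without DU replicates 5 and 6. With Ta replicate 4 left out as well, 10 lost it. In the fit of the 16 DU and Ta libraries alone 10 lost it, namely Acy3, Fat1, Gclc, Gclm, Havcr1, Hmox1, Pkd2l2, Slc15a2, Timp1 and Tmem236. Among the genes refitted under every alternative, sign changes were limited to ones that did not hold. With the balance covariate these were Clu (-0.26), Spp1 (-0.56), Nqo1 (-0.20), Cyp24a1 (0.0075), Kl (0.24) and Slc34a1 (0.039). With 3 surrogate variables they were Clu (-0.37), Havcr1 (-0.096), Spp1 (-0.58) and Nqo1 (-0.22), and without DU replicates 5 and 6 Clu (-0.24), Havcr1 (-0.14), Spp1 (-0.40) and Nqo1 (-0.22). Nqo1, at 0.0080 in the main fit, was also -0.31 with voom, -0.070 with the block, -0.29 with cell make-up covariates, -0.27 without DU replicates 5 and 6 and Ta replicate 4, and between -0.34 and 0.16 with 1 library left out. Genes named solely for the gaps of replicate 6 are not among these; with the balance covariate and without DU replicates 5 and 6, Slc22a6 (0.23 and 0.11), Acsm5 (0.17 and 0.19), Nat8f5 (0.041 and 0.17) and Pfn3 (0.24 and 0.22) turned positive in both fits and Miox in the second (0.19), from negative values with all kidneys. Matn1 was positive in both of these fits too (0.32 and 0.15). The median of the mitochondrially encoded genes was 0.0068 without replicate 6. Depth of 23069582 counts or more per library limits genes under 1 CPM, of which 82 held higher and 4 lower.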

Other observations

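Calls among scarce genes were one-sided. Of 2142 tested genes with a mean under 1 CPM over the 16 kidneys, 82 held higher (3.83%) and 4 held lower (0.187%), against 846 (7.66%) and 641 (5.8%) of 11044 genes with at least 5 CPM. In 14 held higher genes all 8 Ta libraries had 0 counts, and no held lower gene had 0 counts in all DU libraries. Some of them are regulators or structural genes of other tissues, picked here after their values were seen. Hand2, a transcription factor of heart and sympathetic neurons, had 7 to 34 counts in DU libraries and 0 in every Ta library. Aire, the factor that drives expression of tissue antigens in the thymus, had 2 to 28 counts in DU libraries and 0 in Ta libraries, and Krt25, a hair root keratin, 2 to 13 and 0. Hand2 averaged 0.758 CPM in DU, 0.765 CPM in Pb, 0.394 CPM in Al and 0.0631 CPM in Co libraries, and it had 0 counts in W and Ta libraries. The share of odd values among low counts was likewise higher in DU, Al and Pb libraries; its part in these calls was not tested.

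Held genes of lists without a main role in the comparison are given next. Over all genes 10.7% held in either direction, and these small lists were not tested against that share. Of 24 genes of fatty acid oxidation and ketogenesis, 17 circadian clock genes, 22 glutathione S-transferases and 19 cell cycle genes, none held. Blvrb, biliverdin reductase B, was the single held gene of 13 of heme synthesis and breakdown, higher by 0.46 ± 0.11. Ireb2, which regulates iron genes, was the single one of 12 of iron handling, at a log2 fold change of -0.38 ± 0.13, and its call was lost in all but 3 of the 16 fits that leave out 1 library (DU replicates 5 and 6 and Ta replicate 7). Glud1, glutamate dehydrogenase, which feeds ammonia production, was the single one of 15 of bicarbonate, ammonia and gluconeogenesis (-0.53 ± 0.13). Crabp2, a carrier of retinoic acid, held higher (1.20 ± 0.41) in the same list of 13 retinoid genes in which Rara held lower; its call was lost without any of 7 libraries (DU replicates 1, 2 and 5 and Ta replicates 1, 2, 5 and 7). Fcgrt was the only held gene of 16 of protein uptake, and Slc3a2, the heavy chain of amino acid exchangers, the only held higher gene of 18 of glucose, amino acid and peptide reabsorption (0.57 ± 0.16); it was not called without DU replicates 5 and 6. With the balance covariate Rara and Fcgrt held, and Blvrb, Ireb2, Glud1, Crabp2 and Slc3a2 did not.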
